A study of Mus musculus with 15 samples.

Results

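The 55 genes described here encode the enzymes and scaffolds that copy DNA in S phase and the enzymes that supply its deoxynucleotides. The rule that chose them uses gene symbols alone, looked up among the 13342 genes of the deposited count table. All 55 were in the table, and all 55 passed the filter on low counts that left 12798 genes for testing; the lowest count of any of them in any library was 376. By role they fell into the MCM replicative helicase (6 genes), origin recognition and licensing (5), origin firing and assembly of the active helicase (9), polymerases and primase (9), the sliding clamp, its loader and the single-strand binding protein RPA (9), Okazaki fragment and RNA removal (3), nucleotide supply (5), fork protection (3), chromatin assembly and histone mRNA (4) and cyclin E (2).

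The cells were RAW264.7, an established mouse macrophage line that arose from an Abelson virus tumour, at passages 6 to 14. The 15 RNA sequencing libraries fell into 5 groups of 3. Groups were given nonporous Stober silica of 50 nm (Stober50, dosage label 13.1 µg/ml), nonporous Stober silica of 500 nm (Stober500, 16.8 µg/ml), mesoporous silica of 500 nm (MSN500, 111.8 µg/ml) or the same size of mesoporous silica carrying polyethylene glycol (MSN-PEG500, 84 µg/ml), and Control cells received medium alone. All groups were kept in medium with 10% fetal bovine serum. The dosage labels name 0.5 of the LC50, the dose that kills a set share of cells, and do not say whether each value is the dose used or the LC50 itself. Particle and dosage differ together in every comparison and cannot be told apart. The treatment text gives 24 h of exposure and the extraction text 4 h, so the time is uncertain. Whether the replicates were cultured separately is not stated in the labels; the p-values therefore measure the spread between these libraries, which may be technical.

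In each cell cycle, the origin recognition complex with CDC6 and CDT1 loads the MCM ring onto DNA in G1. In S phase, the kinase CDC7 with its partner DBF4, and TOPBP1, convert the loaded ring into a working helicase with CDC45 and the GINS complex. Primase and polymerases alpha, delta and epsilon then copy the strands, PCNA holds the polymerases in place, and FEN1, RNase H2 and DNA ligase 1 finish the lagging strand. Many of these genes are transcribed under E2F factors before and during S phase. RAW264.7 cells divide continuously in culture, unlike most tissue macrophages.

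Library totals ranged from 17683003 to 27253289 counts. All 12 macrophage markers examined were present, and of 25 markers of fibroblasts, lymphocytes, epithelium, erythroid cells and granulocytes, 3 were in the table (Pdgfrb, Lck and S100a8), each summing to under 8 CPM (counts scaled to a common library size) in every library. The level of each gene is given below as normalized CPM, which is CPM after scaling by normalization factors from the trimmed mean of M values (TMM). Levels of different genes are compared only as FPKM, which also divides by exonic length. The largest principal component held 49.6% of the variance, with the 6 mesoporous libraries on one side and the other 9 on the opposite side. MSN-PEG500 replicate 3 stood apart from its group on the next component; without it, 21 of the 55 genes fell and 3 rose in MSN-PEG500 against Control. On library totals alone, without TMM factors, the macrophage markers summed to 16600 to 17200 CPM in MSN500 and 15800 to 16900 in MSN-PEG500. The sums were 18900 to 19100 in Stober50, 19300 to 20100 in Stober500 and 18200 to 18900 in Control. The part of these markers, and of the scaling, in the results below was not tested.

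The genes were well expressed in Control cells. Their mean FPKM had a median of 29.0, against 8.03 over all 13342 genes of the deposited count table. Of the 55, 54 lay above that wider median. Orc1, the large subunit of the origin recognition complex, was lowest at 6.48 ± 0.465 FPKM in Control cells (SD, n = 3). Mcm6, a subunit of the helicase ring, was highest at 149 ± 2.01 FPKM.

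With both mesoporous particles, 36.4% or more of the set fell by a small amount, while with the nonporous particles 2 or fewer genes were called. In MSN500 against Control, 21 of the 55 genes fell and 6 rose (edgeR's quasi-likelihood test, adjusted p under 0.05 over all genes tested), where 21.2% of all genes tested were called lower and 21.6% higher. In MSN-PEG500 against Control, 20 fell and 3 rose, where 16.9% of all genes were called lower and 17.5% higher. As shares of the 55, the genes that fell were 38.2% with MSN500 and 36.4% with MSN-PEG500, above the background, and the genes that rose were 10.9% and 5.45%, below it. The changes were small: the median log2 fold change over the 55 was -0.07 with MSN500 and -0.07 with MSN-PEG500, against -0.004 and -0.011 over all genes tested, and the values ranged from -0.59 to 0.28 with MSN500 and from -0.52 to 0.28 with MSN-PEG500. These comparisons share the 3 Control libraries.

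In Stober50 against Control, 2 of the 55 fell, Pole and Topbp1, where 3.72% of all genes tested were called lower, and none rose. In Stober500 against Control, 0 of the 55 were called by edgeR, where 0.00781% of all genes tested (1 gene) were called; 10 of the 55 (18.2%) had an unadjusted p under 0.05, against 11.9% of all genes tested, and DESeq2 called 1 of the 55. The F-test over the 5 groups called 29 of the 55, or 52.7%, where 49.7% of all genes were called, a share close to the background.

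**Figure D1:**
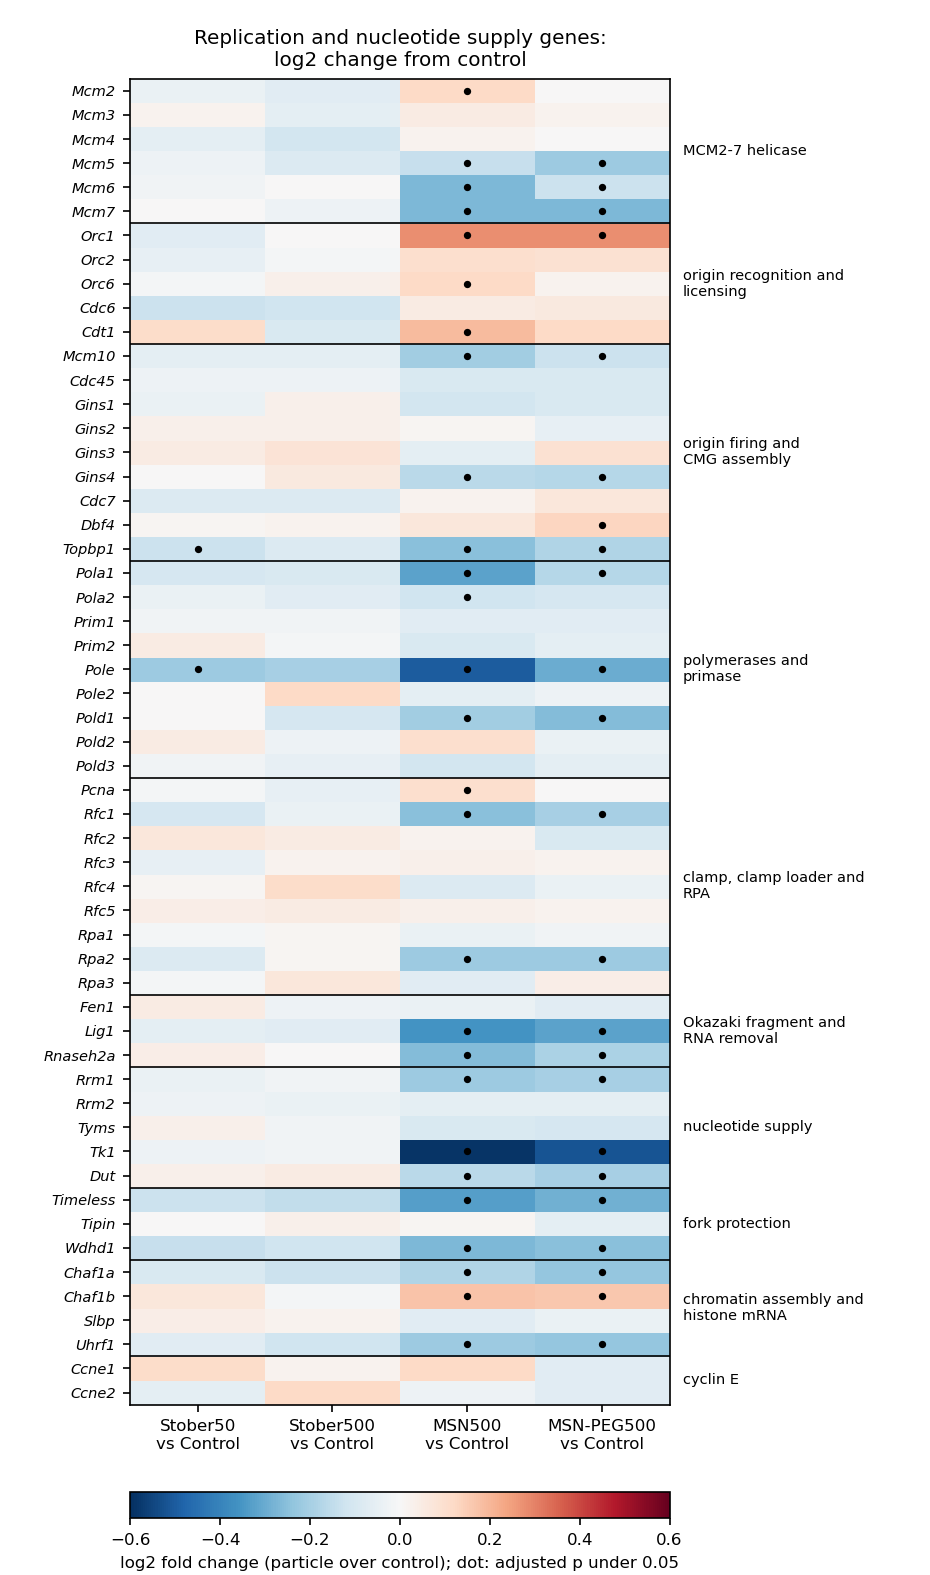
Log2 fold change of each of the 55 genes (rows, grouped by role) in each particle group over Control (columns), with a dot where the adjusted p was under 0.05. In the mesoporous columns 20 of the 55 rows are blue with a dot in both, Tk1 is the darkest at -0.59 and -0.52, and the 5 origin recognition and licensing genes are the only block with positive values throughout both mesoporous columns; under library-total scaling 1 of those 5 is negative in each column.

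**Figure D2:**
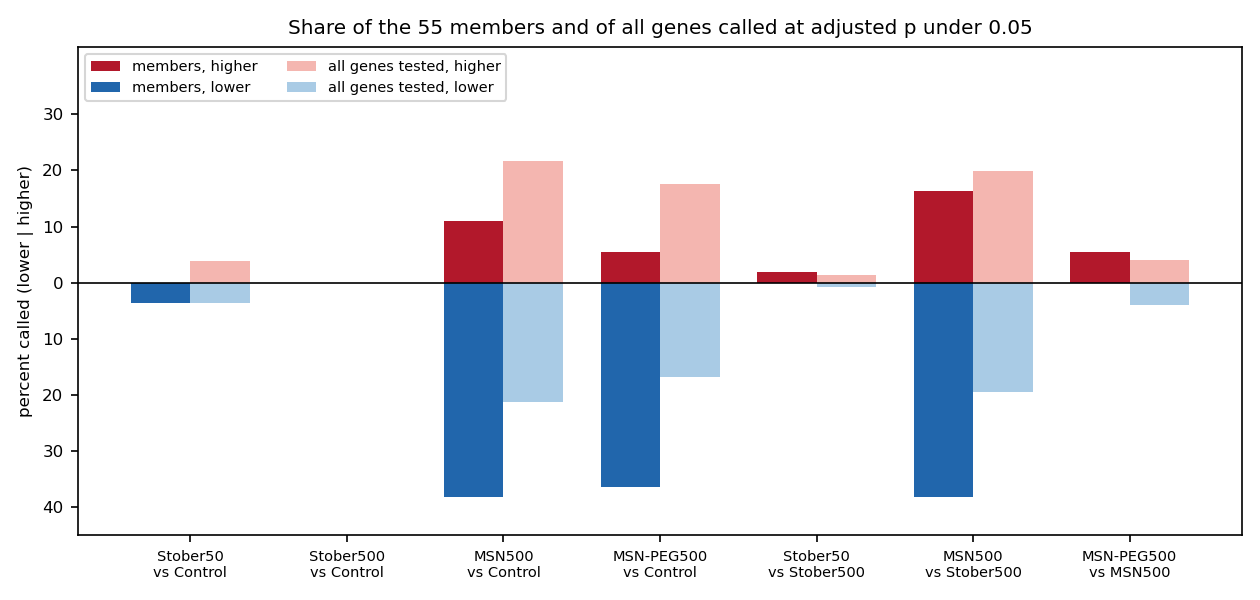
Percent of the 55 genes (dark bars) and of all 12798 genes tested (light bars) called higher (upward, red) or lower (downward, blue) in each of the 7 comparisons. With MSN500 and MSN-PEG500 the dark downward bars reach 38.2% and 36.4%, beside light bars of 21.2% and 16.9%.

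How libraries were scaled moved the split of the calls. Without normalization factors, on library totals alone (a setting added after the data were seen), 32 of the 55 fell and 2 rose with MSN500, and 30 fell and 2 rose with MSN-PEG500; 94.1% and 93.8% of the called members were then lower, against 77.8% and 87.0% with TMM. In that setting 67.0% and 66.6% of all called genes were lower, against 49.5% and 49.1% with TMM, and the median log2 change of all genes moved to -0.0714 and -0.0681. All 21 and all 20 genes called lower with TMM were also called lower on library totals. That setting moved mesoporous values down against Control, so it was no check of the lower calls. TMM factors were 0.974 in all MSN500 libraries, between 0.979 and 0.984 in MSN-PEG500 and between 1.01 and 1.02 in the other groups. As a share of the raw counts, the 55 genes together took 0.618% ± 0.00404 in MSN500 and 0.622% ± 0.0104 in MSN-PEG500, against 0.677% ± 0.00459 in Stober50, 0.678% ± 0.00871 in Stober500 and 0.699% ± 0.00457 in Control (SD, n = 3 each). That raw share was 11.6% and 11% below Control in MSN500 and MSN-PEG500. With TMM, the summed normalized CPM of the 55 was 7.32% and 7.37% below Control, and 1.96% and 2.63% below in Stober50 and Stober500.

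Library by library, 13 of the 55 genes had all 6 mesoporous libraries below all of the other 9 libraries, where 8.97% of all genes tested did, and 2 had all 6 above, where 11.5% did. The 13 were Mcm5, Mcm6, Mcm7, Pole, Rfc1, Rpa2, Lig1, Rnaseh2a, Rrm1, Tk1, Dut, Chaf1a and Uhrf1, and the 2 were Orc1 and Chaf1b. Against the 3 Control libraries alone, 22 genes had all 6 mesoporous libraries below (16.1% of all genes) and 2 above (17.4%). In these bulk libraries, fewer cells in S phase and less RNA per cell cannot be told apart.

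**Figure D3:**
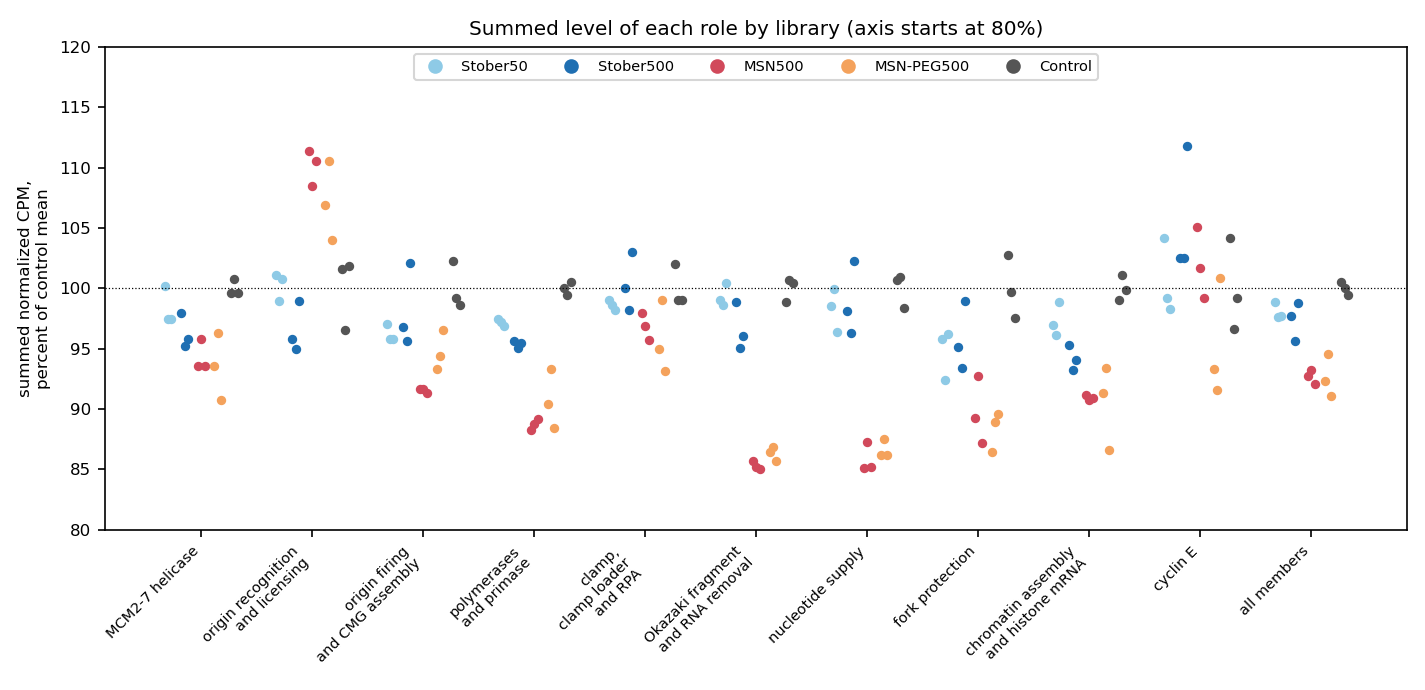
Summed normalized CPM of the genes of each role in each of the 15 libraries (points), as a percent of the Control mean, with an axis that starts at 80%. The mesoporous libraries (red and orange) lie above Control for origin recognition and licensing and lowest for Okazaki fragment and RNA removal and for nucleotide supply.

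Promoter sequence was examined because E2F factors are the textbook regulators of these genes, and the windows printed are those of genes that lead their role by the F-test over the 5 groups and hold a motif. RefSeq windows of 300 bases (250 before to 50 after a transcription start, GRCm38.p6) were found for 46 of the 55. The E2F strings searched on both strands were TTTCCCGC, TTTGGCGC and TTTCGCGC; 16 of the 46 genes (34.8%) held at least 1 of them, as did 573 of 27025 genes in the table (2.12%). CCAAT, the letters that factor NF-Y binds, was in 26 of the 46 (56.5%) and in 11096 of the 27025 (41.1%). No E2F string can contain CCAAT or its reverse complement. Of the genes called lower with MSN500 that had a window, 8 of 19 held an E2F string, of those called higher 2 of 6, and of those not called 6 of 21. A match is a description of the letters and no evidence of binding. The 250 bases before the start follow, 5′ to 3′ on the gene's strand, with the E2F and CCAAT matches in capitals.
Mcm7, chr5:138171884-138172133, minus strand: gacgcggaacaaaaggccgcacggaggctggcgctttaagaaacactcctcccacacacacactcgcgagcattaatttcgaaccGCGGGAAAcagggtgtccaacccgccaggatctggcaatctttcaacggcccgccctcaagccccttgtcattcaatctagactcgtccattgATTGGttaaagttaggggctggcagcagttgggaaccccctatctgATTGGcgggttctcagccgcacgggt
Orc1, chr4:108579204-108579453, plus strand: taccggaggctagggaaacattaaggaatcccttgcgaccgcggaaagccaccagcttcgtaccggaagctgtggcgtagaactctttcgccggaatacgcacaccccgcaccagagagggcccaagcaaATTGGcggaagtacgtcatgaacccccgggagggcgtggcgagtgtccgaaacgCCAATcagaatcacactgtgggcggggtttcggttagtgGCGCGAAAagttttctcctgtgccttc
Topbp1, chr9:103305077-103305326, plus strand: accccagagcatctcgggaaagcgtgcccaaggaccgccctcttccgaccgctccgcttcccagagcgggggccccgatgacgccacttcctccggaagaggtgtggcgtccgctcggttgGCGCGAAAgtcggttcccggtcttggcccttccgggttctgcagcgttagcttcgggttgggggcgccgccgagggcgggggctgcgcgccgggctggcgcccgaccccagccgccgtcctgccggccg
Rpa2, chr4:132768110-132768359, plus strand: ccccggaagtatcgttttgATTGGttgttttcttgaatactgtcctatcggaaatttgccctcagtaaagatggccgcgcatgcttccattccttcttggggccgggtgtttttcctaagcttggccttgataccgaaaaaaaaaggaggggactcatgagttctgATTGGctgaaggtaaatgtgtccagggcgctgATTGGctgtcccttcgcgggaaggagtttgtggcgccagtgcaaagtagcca
Uhrf1, chr17:56303087-56303336, plus strand: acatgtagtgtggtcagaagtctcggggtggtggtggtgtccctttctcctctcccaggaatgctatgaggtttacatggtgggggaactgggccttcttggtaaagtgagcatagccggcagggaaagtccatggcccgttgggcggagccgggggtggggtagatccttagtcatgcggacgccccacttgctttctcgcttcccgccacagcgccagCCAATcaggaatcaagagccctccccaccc
In these windows, Mcm7, Orc1 and Topbp1 each held 1 E2F string before the start; Rpa2 and Uhrf1 held CCAAT alone. Orc1 rose and the other 4 fell with both mesoporous particles, as described below. The Mcm7 window lies wholly inside the span that the deposited table gives the gene, which reaches further upstream than this RefSeq start.

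Of the 6 subunits of the MCM ring, 3 fell and 1 rose with MSN500, and 3 fell and none rose with MSN-PEG500. Over all genes tested, 21.2% were called lower and 21.6% higher with MSN500, and 16.9% and 17.5% with MSN-PEG500. The summed level of the 6 was 1703 ± 21.4 normalized CPM in MSN500 and 1689 ± 49.7 in MSN-PEG500, against 1806 ± 15.1 in Control (SD, n = 3 each). Mcm7 (ENSMUSG00000029730, chr5:138164583-138172422 on the minus strand) had 131, 136 and 125 normalized CPM in MSN500 libraries, 130, 137 and 124 in MSN-PEG500, 158, 156 and 157 in Stober50 and 157, 153 and 154 in Stober500, against 155, 161 and 156 in Control. All 6 mesoporous libraries lay below all other libraries, and the nonporous libraries overlapped Control. The log2 difference from Control was -0.27 (SE 0.04, adjusted p = 4.48e-06) in MSN500 and -0.27 (SE 0.04, adjusted p = 4.84e-06) in MSN-PEG500. In GENCODE M21, exons of Mcm7 share 64 bases with Cops6 and 321 bases with Ap4m1 on the opposite strand; it is not known whether counting took strand into account. Mcm6 (ENSMUSG00000026355, chr1:128331591-128359656 on the minus strand) had 342, 364 and 354 normalized CPM in MSN500 libraries, 384, 391 and 389 in MSN-PEG500, 430, 414 and 416 in Stober50 and 427, 420 and 428 in Stober500, against 429, 420 and 425 in Control. The MSN500 libraries were lowest, the MSN-PEG500 libraries lay between them and the rest, and neither overlapped any other group. The log2 fold change of Mcm6 was -0.27 (SE 0.03, adjusted p = 5.38e-07) in MSN500, -0.13 (SE 0.03, adjusted p = 0.00438) in MSN-PEG500 and 0.14 (SE 0.03, adjusted p = 0.0159) in MSN-PEG500 over MSN500. Mcm5 fell by 0.14 and 0.22 on the log2 scale with MSN500 and MSN-PEG500; its MSN500 call was lost without MSN500 replicate 3 (adjusted p = 0.0695) and without Control replicate 2 (0.0608). The other 3 subunits did not fall: Mcm2 rose with MSN500 (0.12 (SE 0.04, adjusted p = 0.0205)), a call lost under upper quartile factors (adjusted p = 0.0718), on library totals (0.339) and without Control replicate 1 (0.0847), and Mcm3 and Mcm4 had log2 values of 0.05 and 0.02 with MSN500 and did not pass the test. Differences between subunits were not tested.

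Of the 5 genes of origin recognition and licensing, 3 rose with MSN500 (Orc1, Orc6 and Cdt1), where 21.6% of all genes were called higher, and 1 rose with MSN-PEG500 (Orc1), where 17.5% were. None of the 5 fell with either particle, and all 5 log2 fold changes were positive with both under TMM. The difference from the other roles was not tested. On library totals, 4 of the 5 were positive with each particle. Orc1 (ENSMUSG00000028587, chr4:108579423-108614833 on the plus strand) had 26.6, 26.9 and 26.6 normalized CPM in MSN500 libraries, 24.8, 27.5 and 28 in MSN-PEG500, 22.2, 19.7 and 21.1 in Stober50 and 21.5, 21.2 and 23.8 in Stober500, against 22.2, 20.5 and 23.5 in Control. Every mesoporous library lay above all other libraries, which overlapped each other. The log2 fold change of Orc1 was 0.28 (SE 0.07, adjusted p = 0.00149) in MSN500 and 0.28 (SE 0.07, adjusted p = 0.00212) in MSN-PEG500, and both calls held under every alternative run. Cdt1, which brings the MCM ring to the origin complex, rose with MSN500 with a log2 fold change of 0.19 (SE 0.05, adjusted p = 0.00627) and had 0.12 (SE 0.05, adjusted p = 0.0926) with MSN-PEG500; its call with MSN500 was lost on library totals (adjusted p = 0.0663). Orc6 had 0.12 (SE 0.05, adjusted p = 0.0379) with MSN500, a call lost under 7 of 15 alternatives. Orc6 overlaps Vps35 on the opposite strand in GENCODE M21, and Vps35 had 6.06 times its counts; whether the exons that were counted overlap was not tested. Orc2 and Cdc6, the loader ATPase, did not pass the test with either mesoporous particle, with log2 values of 0.10 and 0.05 for MSN500 and 0.09 and 0.06 for MSN-PEG500. Geminin (Gmnn), the protein that inhibits CDT1 and was not among the 55, averaged 80.1 ± 0.532 normalized CPM in MSN500 and 83.9 ± 2.69 in MSN-PEG500, against 103 ± 7.84 in Control (SD, n = 3 each), with log2 fold changes of -0.37 and -0.30 (adjusted p = 9.70e-07 and 2.54e-05).

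Of the 9 genes of origin firing and helicase assembly, 3 fell with MSN500 and with MSN-PEG500 (Mcm10, Gins4 and Topbp1 in each), and 1, Dbf4, rose with MSN-PEG500. Among all genes tested, 21.2% were called lower with MSN500, and 16.9% lower and 17.5% higher with MSN-PEG500. Topbp1 (ENSMUSG00000032555, chr9:103305215-103350432 on the plus strand) had 215, 212 and 214 normalized CPM in MSN500 libraries, 218, 220 and 236 in MSN-PEG500, 238, 229 and 228 in Stober50 and 235, 238 and 247 in Stober500, against 259, 250 and 253 in Control. The 3 Control libraries lay above all 12 particle libraries, and the MSN500 libraries were lowest. The log2 fold change of Topbp1, the scaffold that also activates the checkpoint kinase ATR, was -0.25 (SE 0.04, adjusted p = 5.75e-06) in MSN500, -0.18 (SE 0.04, adjusted p = 5.58e-04) in MSN-PEG500 and -0.13 (SE 0.04, adjusted p = 0.0267) in Stober50. For Stober50 against Control, it was no longer called when Stober50 replicate 2 (adjusted p = 0.16) or 3 (0.0841) was left out, without Control replicate 1 (0.104) or 3 (0.0626), and after removal of the trend with exonic length (0.0717). The annotation lists 2 processed copies of Topbp1, whose reads may be split or shared. Mcm10, which binds the active helicase, fell by 0.21 with MSN500 and by 0.13 with MSN-PEG500 on the log2 scale. Gins4 fell by 0.16 and 0.17. Its MSN500 call was lost without MSN500 replicate 1 (adjusted p = 0.0642) or 3 (0.111), and its MSN-PEG500 call without Control replicate 2 (0.0564). Dbf4, the partner of CDC7, had 0.13 (SE 0.05, adjusted p = 0.0463), a call lost under 8 of 15 alternatives. Cdc45, Cdc7, Gins1, Gins2 and Gins3 did not pass the test with either mesoporous particle and lay between -0.11 and 0.09.

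Among the polymerases, the catalytic subunits fell and most accessory subunits did not pass the test. The difference between catalytic and accessory subunits was not tested. Pole, Pola1, Pold1 and Pola2 fell with MSN500, and Pole, Pola1 and Pold1 with MSN-PEG500. None of the 9 rose. Among all genes tested, 21.2% were called lower with MSN500 and 16.9% with MSN-PEG500. Pole (ENSMUSG00000007080, chr5:110286306-110337474 on the plus strand), the catalytic subunit of the leading-strand polymerase epsilon, had 63.1, 63.2 and 63.4 normalized CPM in MSN500 libraries, 72.3, 73.7 and 71.5 in MSN-PEG500, 75.3, 75.1 and 79.4 in Stober50 and 78.8, 75.9 and 79 in Stober500, against 89.9, 88.5 and 89.4 in Control. The groups lay in steps, with Control highest and not overlapping any particle group, the nonporous groups overlapping each other, and MSN500 lowest. The log2 fold change of Pole was -0.50 (SE 0.04, adjusted p = 7.69e-11) in MSN500, -0.30 (SE 0.04, adjusted p = 7.97e-07) in MSN-PEG500, -0.22 (SE 0.04, adjusted p = 6.18e-04) in Stober50 and -0.20 (SE 0.04, adjusted p = 0.0587) in Stober500, which did not pass. Pole was also higher in MSN-PEG500 than in MSN500, by 0.20 (SE 0.04, adjusted p = 0.00342), a call lost after removal of the length trend (adjusted p = 0.12). Pole has 11160 exonic bases, the longest of the 55. Pola1 and Pold1 have 8813 and 4860, also above the median of 3509 over the 55. So does Prim1, at 3868, which did not pass. The part of length in the split between subunits was not tested.

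Pola1 (ENSMUSG00000006678, chrX:93304767-93632155 on the minus strand), the catalytic subunit of the polymerase that extends primers, had 85.3, 88 and 87.4 normalized CPM in MSN500 libraries, 95.6, 92.7 and 101 in MSN-PEG500, 101, 98.5 and 103 in Stober50 and 97.8, 100 and 107 in Stober500, against 112, 109 and 103 in Control. All 6 mesoporous libraries lay below all Control libraries, and the MSN-PEG500 libraries overlapped the Stober libraries. It had a log2 fold change of -0.32 (SE 0.04, adjusted p = 1.68e-06) in MSN500 and -0.17 (SE 0.04, adjusted p = 0.00404) in MSN-PEG500. Pold1 (ENSMUSG00000038644, chr7:44532746-44548849 on the minus strand), the catalytic subunit of polymerase delta, had 106, 105 and 99.1 normalized CPM in MSN500 libraries, 103, 109 and 88.2 in MSN-PEG500, 119, 122 and 118 in Stober50 and 117, 113 and 106 in Stober500, against 114, 122 and 124 in Control. The mesoporous libraries lay below Control, with MSN-PEG500 replicate 3 lowest of all. Relative to Control, its log2 change was -0.21 (SE 0.06, adjusted p = 0.00283) in MSN500 and -0.26 (SE 0.06, adjusted p = 5.89e-04) in MSN-PEG500. Pola2 had -0.12 (SE 0.04, adjusted p = 0.025) in MSN500, a call lost under 5 of 15 alternatives. The primase subunits Prim1 and Prim2 and the accessory subunits Pole2, Pold2 and Pold3 did not pass, with log2 values from -0.11 to 0.10 with MSN500 and from -0.07 to -0.03 with MSN-PEG500.

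Of the 9 genes of the clamp, its loader and RPA, Rfc1 and Rpa2 fell with both mesoporous particles, and Pcna rose with MSN500. Rpa2 (ENSMUSG00000028884, chr4:132768332-132778752 on the plus strand), the middle subunit of RPA and a target of checkpoint kinases, had 80.6, 79.6 and 80.5 normalized CPM in MSN500 libraries, 78, 83.6 and 78.5 in MSN-PEG500, 89.3, 89.1 and 87.2 in Stober50 and 91.5, 94 and 96.9 in Stober500, against 93.7, 95.4 and 90.6 in Control. Every mesoporous library was below every other library. Its log2 fold change was -0.22 (SE 0.04, adjusted p = 8.07e-05) in MSN500 and -0.22 (SE 0.04, adjusted p = 9.28e-05) in MSN-PEG500. The other subunits, Rpa1 and Rpa3, had log2 values of -0.04 and -0.07 with MSN500 and -0.02 and 0.04 with MSN-PEG500 and did not pass. Rfc1, the large subunit of the clamp loader, fell by 0.25 and 0.20 with MSN500 and MSN-PEG500 on the log2 scale, while Rfc2, Rfc3, Rfc4 and Rfc5 lay between -0.09 and 0.03 and did not pass. Pcna, the clamp itself, had 0.10 (SE 0.04, adjusted p = 0.0303) with MSN500, a call lost under 6 of 15 alternatives, and 0.00 with MSN-PEG500 (adjusted p = 0.982). Pcna has 2 annotated pseudogenes, with which its reads may be split or shared.

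In the removal of RNA primers and the joining of Okazaki fragments, Lig1 and Rnaseh2a fell with both mesoporous particles and Fen1 did not pass. The share of all genes called lower was 21.2% with MSN500 and 16.9% with MSN-PEG500. Together the 3 genes summed to 363.3 ± 1.74 normalized CPM in MSN500 and 367.5 ± 2.51 in MSN-PEG500, against 426.1 ± 4.33 in Control (SD, n = 3 each), which is 14.7% and 13.8% below Control. Lig1 (ENSMUSG00000056394, chr7:13277283-13311433 on the plus strand), the ligase that seals the fragments, had 174, 176 and 179 normalized CPM in MSN500 libraries, 179, 181 and 183 in MSN-PEG500, 212, 212 and 224 in Stober50 and 220, 210 and 213 in Stober500, against 218, 227 and 232 in Control. The mesoporous libraries were all below the others, and the Stober libraries overlapped Control. The log2 fold change of Lig1 was -0.36 (SE 0.04, adjusted p = 1.20e-08) in MSN500 and -0.32 (SE 0.04, adjusted p = 1.15e-07) in MSN-PEG500. Rnaseh2a (ENSMUSG00000052926, chr8:84956610-84969767 on the minus strand), the catalytic subunit of RNase H2, had 47, 49.9 and 46.3 normalized CPM in MSN500 libraries, 52.1, 51.2 and 46.3 in MSN-PEG500, 58.2, 60.2 and 57.1 in Stober50 and 58.3, 55.2 and 57.1 in Stober500, against 54.6, 59.2 and 57.2 in Control. Again no mesoporous library reached any other library. It had a log2 fold change of -0.26 (SE 0.05, adjusted p = 1.64e-04) in MSN500 and -0.19 (SE 0.05, adjusted p = 0.0038) in MSN-PEG500. In the same annotation, exons of Rnaseh2a share 177 bases with Prdx2 on the opposite strand, a gene with 3.46 times its counts, so its level is uncertain where strand was not used.

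Nucleotide supply held the largest change of the 55. Tk1, Rrm1 and Dut fell with both mesoporous particles, and Rrm2 and Tyms did not pass. The share of all genes called lower was 21.2% with MSN500 and 16.9% with MSN-PEG500. The summed level of the 5 genes was 796.9 ± 11.6 normalized CPM in MSN500 and 803.8 ± 7.21 in MSN-PEG500, against 928.5 ± 13.1 in Control (SD, n = 3 each), or 14.2% and 13.4% below Control. Tk1 (ENSMUSG00000025574, chr11:117815526-117826092 on the minus strand), the cytosolic kinase that salvages thymidine, had 89.8, 91.8 and 84.1 normalized CPM in MSN500 libraries, 94.9, 101 and 83.3 in MSN-PEG500, 130, 135 and 127 in Stober50 and 133, 132 and 128 in Stober500, against 130, 136 and 135 in Control. The 6 mesoporous libraries lay far below the other 9, which overlapped each other, and MSN-PEG500 replicate 3 was the lowest. Relative to Control, its log2 change was -0.59 (SE 0.05, adjusted p = 3.13e-10) in MSN500 and -0.52 (SE 0.05, adjusted p = 4.55e-09) in MSN-PEG500, or 33.6% and 30.3% below Control, and -0.03 and -0.02 in Stober50 and Stober500, which did not pass. In that annotation Tk1 shares 83 exonic bases with Afmid, which had 0.131 times its counts.

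The subunits of ribonucleotide reductase, which makes deoxynucleotides from ribonucleotides, are given by library because they form a single enzyme, a choice made after their values were seen. The large subunit, Rrm1, had 381, 393 and 373 normalized CPM in MSN500 libraries, 385, 383 and 395 in MSN-PEG500, 436, 441 and 422 in Stober50 and 438, 419 and 461 in Stober500, against 449, 456 and 434 in Control. It fell by 0.22 and 0.20 on the log2 scale with MSN500 and MSN-PEG500 (adjusted p = 3.46e-05 and 1.43e-04), and its mesoporous libraries lay below all others. The small subunit, Rrm2, had 165, 164 and 168 normalized CPM in MSN500 libraries, 165, 162 and 169 in MSN-PEG500, 172, 168 and 168 in Stober50 and 163, 164 and 179 in Stober500, against 176, 168 and 174 in Control. Its mesoporous libraries overlapped the Stober libraries and Control, with log2 values of -0.06 and -0.06 (adjusted p = 0.212 and 0.234). Dut, which removes dUTP, fell by 0.16 and 0.20; its MSN500 call was lost without MSN500 replicate 1 (adjusted p = 0.0792). Tyms, the enzyme that makes thymidylate from dUMP and has 1 annotated pseudogene, had -0.09 and -0.10 and did not pass. No test was made of whether Rrm1 and Rrm2, or Tk1 and Tyms, differed from each other in their response.

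Of the fork protection genes, Timeless and Wdhd1 fell with both mesoporous particles, and Tipin, which binds Timeless, had log2 values of 0.01 and -0.06 and did not pass. Among all genes tested, 21.2% were called lower with MSN500 and 16.9% with MSN-PEG500. Timeless (ENSMUSG00000039994, chr10:128232065-128252941 on the plus strand) had 62.8, 65.8 and 61.9 normalized CPM in MSN500 libraries, 64.6, 69.2 and 61.5 in MSN-PEG500, 71.3, 72.6 and 73.9 in Stober50 and 75.8, 67.9 and 72.1 in Stober500, against 80, 79.6 and 79.3 in Control. The Control libraries lay above all 12 particle libraries, and the mesoporous libraries were lowest apart from an overlap of MSN-PEG500 with Stober500. The log2 difference from Control was -0.33 (SE 0.05, adjusted p = 2.89e-06) in MSN500, -0.29 (SE 0.05, adjusted p = 2.02e-05) in MSN-PEG500, -0.13 (SE 0.05, adjusted p = 0.0798) in Stober50 and -0.15 (SE 0.05, adjusted p = 0.18) in Stober500. Wdhd1 (ENSMUSG00000037572, chr14:47240944-47276832 on the minus strand), which ties polymerase alpha to the helicase, had 69.5, 76.8 and 69.8 normalized CPM in MSN500 libraries, 71.1, 72.2 and 75.4 in MSN-PEG500, 84.4, 73.3 and 78.9 in Stober50 and 82.6, 79.4 and 76.5 in Stober500, against 91.5, 82.7 and 85.8 in Control. The mesoporous libraries lay below Control and overlapped Stober50, and MSN500 also overlapped Stober500. Its log2 fold change was -0.27 (SE 0.05, adjusted p = 1.81e-04) in MSN500 and -0.25 (SE 0.05, adjusted p = 5.12e-04) in MSN-PEG500.

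Of the 4 genes of chromatin assembly and histone mRNA, Uhrf1 and Chaf1a fell and Chaf1b rose with both mesoporous particles, and Slbp, which binds histone mRNA, did not pass. Over all genes tested, 21.2% were called lower and 21.6% higher with MSN500, and 16.9% and 17.5% with MSN-PEG500. Uhrf1 (ENSMUSG00000001228, chr17:56303321-56323486 on the plus strand), which brings DNA methyltransferase 1 to newly copied DNA, had 198, 200 and 201 normalized CPM in MSN500 libraries, 203, 205 and 189 in MSN-PEG500, 219, 218 and 228 in Stober50 and 219, 213 and 210 in Stober500, against 227, 234 and 237 in Control. All 6 mesoporous libraries were below all others, and the Stober500 libraries also lay below Control. Relative to Control, its log2 change was -0.22 (SE 0.04, adjusted p = 2.80e-05) in MSN500 and -0.23 (SE 0.04, adjusted p = 2.91e-05) in MSN-PEG500. Chaf1a and Chaf1b encode the large and middle subunits of the same histone chaperone, CAF-1, and were called in opposite directions. Chaf1a had log2 fold changes of -0.18 (SE 0.04, adjusted p = 3.72e-04) and -0.23 (SE 0.04, adjusted p = 2.71e-05) with MSN500 and MSN-PEG500. Chaf1b had 0.17 (SE 0.04, adjusted p = 0.0016) and 0.16 (SE 0.04, adjusted p = 0.00278), and its mesoporous libraries, from 61.1 to 65.1 normalized CPM, lay above the other 9, from 55.3 to 60.0. In GENCODE M21 Chaf1a overlaps Ubxn6 on the opposite strand, but that model of Chaf1a is longer than the deposited one, and whether the exons that were counted overlap was not tested.

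The cyclin E genes, whose products drive entry into S phase with CDK2, were not called in any comparison with Control. Ccne1 (ENSMUSG00000002068, chr7:38097984-38107534 on the minus strand) had 56.4, 50.2 and 52.4 normalized CPM in MSN500 libraries, 49.5, 46 and 43.4 in MSN-PEG500, 55.9, 52.6 and 49.5 in Stober50 and 48.6, 46.9 and 52.6 in Stober500, against 51.2, 46.3 and 48.5 in Control. All 5 groups overlapped except MSN500 and MSN-PEG500, whose libraries did not. The log2 fold change of Ccne1 was 0.12 (SE 0.06, adjusted p = 0.108) in MSN500, -0.07 (SE 0.06, adjusted p = 0.407) in MSN-PEG500 and -0.19 (SE 0.06, adjusted p = 0.0521) in MSN-PEG500 over MSN500, none of which passed. Ccne2 had -0.03 in MSN500 and -0.07 in MSN-PEG500.

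**Figure D4:**
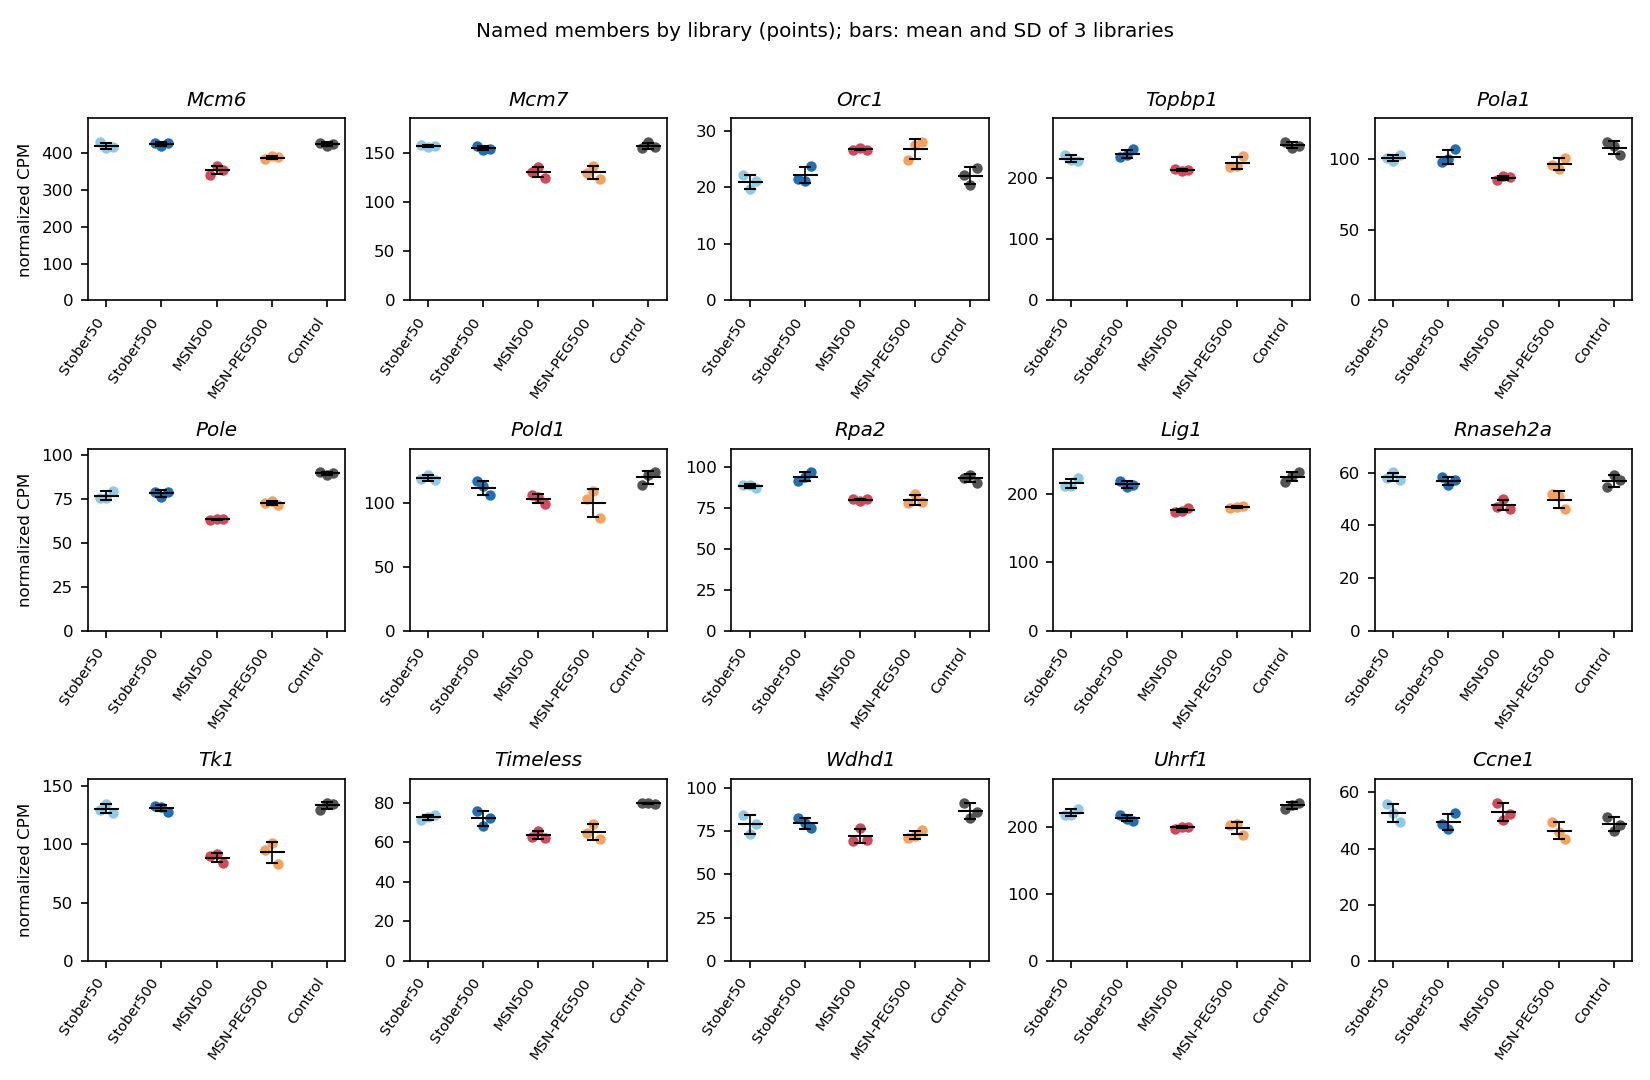
Normalized CPM of 15 genes in each library (points, 3 per group), with the mean and SD of each group as bars and axes that start at 0. Tk1 is the clearest step down in the red and orange groups (83.3 to 101 against 127 to 136 in the other 9 libraries), and Orc1 the step up. In the Pole, Topbp1 and Timeless panels, all 3 Control libraries lie above all 12 particle libraries.

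The comparison of MSN500 with Stober500 sets a mesoporous against a nonporous particle of the same nominal size, although the dosage labels differ (111.8 against 16.8 µg/ml). It called 21 of the 55 lower and 9 higher, where 19.5% of all genes were called lower and 19.9% higher. This comparison shares no library with MSN-PEG500 against Control, so their calls can be set against each other. Of the 21 genes lower in MSN500 than in Stober500 and the 20 lower in MSN-PEG500 than in Control, 17 were shared, or 81.0% of the 21 and 85.0% of the 20. Over all genes tested, the lower calls numbered 2495 and 2158, and 1517 were shared, or 60.8% and 70.3%. Of 9 and 3 called higher, 2 were shared (Chaf1b and Orc1), 22.2% and 66.7% of the lists, against 68.5% and 78.1% over all genes tested. Among the 55, 0 genes were called in opposite directions. Over the 55 genes the log2 fold changes of the 2 comparisons had the same sign in 50, or 90.9%, and a Pearson r of 0.81 and a Spearman rho of 0.75; over all 12798 genes tested the same sign was found in 76.5%, with r of 0.80 and rho of 0.70. Genes are not independent replicates, and no test was made of these values. In MSN500, 8 genes were called over Stober500 and not over Control, and none of them was called in Stober500 against Control. Cdc6, Mcm3, Mcm4 and Pold2 were the 4 higher ones, with log2 values of 0.17, 0.10, 0.13 and 0.13, and Rfc4, Pole2, Gins1 and Ccne2 the 4 lower ones, with -0.19, -0.17, -0.14 and -0.15. Cdc6 and Rfc4 kept their calls under all 15 alternatives. In GENCODE M21, exons of Rfc4 share 194 bases with Eif4a2 on the opposite strand, a gene with 3.18 times its counts. None of the alternatives addressed that overlap. Mcm4 lost its call on library totals (adjusted p = 0.143), and the remaining 5 lost theirs under 3 to 8 alternatives.

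**Figure D5:**
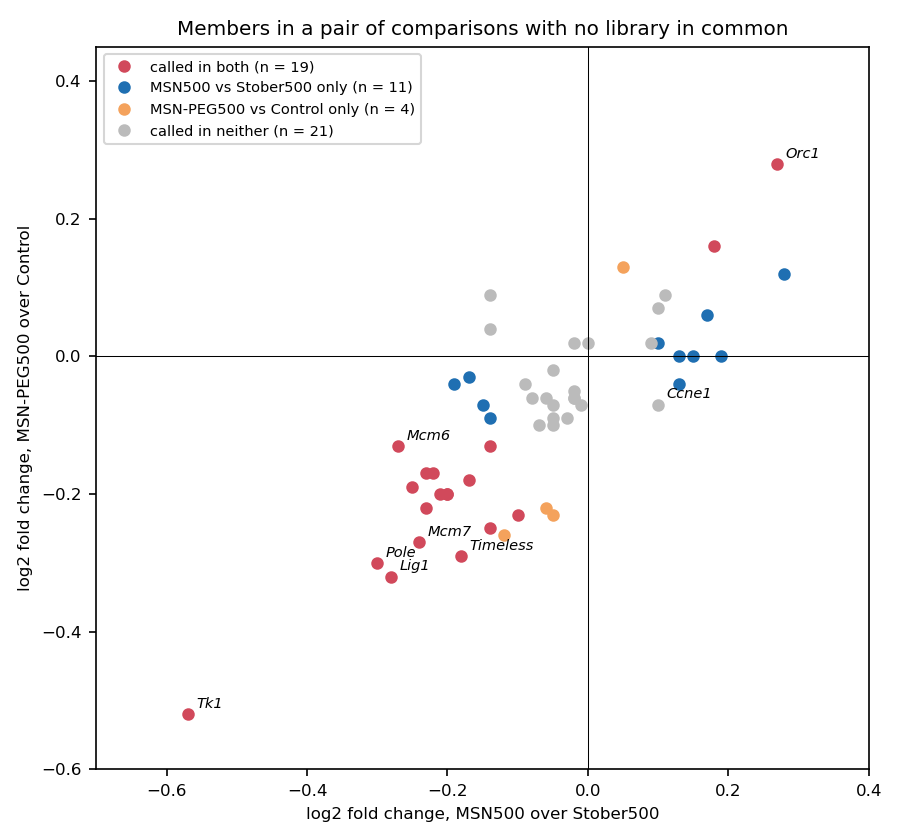
Log2 fold change of each of the 55 genes in MSN500 over Stober500 (x axis) and in MSN-PEG500 over Control (y axis), coloured by where the gene was called. The 19 genes called in both lie in the lower left (17) or upper right (2), with Tk1 at -0.57 and -0.52 and Orc1 at 0.27 and 0.28.

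Pegylation was set against the bare mesoporous particle in MSN-PEG500 against MSN500, with dosage labels of 84 and 111.8 µg/ml. Mcm6, Pola1 and Pole were called, all 3 higher in MSN-PEG500, where 4.10% of all genes tested were called higher; 3 of 55 is 5.45%, close to the background. Pola1 had a log2 fold change of 0.15 (SE 0.04, adjusted p = 0.0411), a call lost under 8 of 15 alternatives. With the trend with exonic length removed, neither Pola1 (adjusted p = 0.281) nor Pole (0.12) was called. Of the 3 calls higher in MSN-PEG500, 1 was left without MSN500 replicate 1 and without MSN500 replicate 3, and without MSN-PEG500 replicate 2 the comparison called 6 genes, 3 of them lower. For Tk1, the difference was 0.07 (SE 0.05, adjusted p = 0.452), and for Lig1 0.04 (SE 0.04, adjusted p = 0.616), neither of which passed. Particle size was compared in Stober50 against Stober500, at 13.1 and 16.8 µg/ml. There, 1 of the 55, Cdt1, was called higher, with a log2 fold change of 0.20 (SE 0.05, adjusted p = 0.0488), where 1.41% of all genes were called higher, and the call was lost under 11 of 15 alternatives, among them leaving out any of the 6 libraries compared.

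Fold change went with transcript length in these genes. The Spearman rho between log2 fold change and exonic length over the 55 was -0.357 in MSN500 against Control and -0.269 in MSN-PEG500, and -0.462 and -0.495 in Stober50 and Stober500; over all genes tested it was -0.111, 0.0304, -0.263 and -0.257. For MSN-PEG500 against MSN500, rho was 0.383 over the 55 and 0.268 over all genes tested. With MSN500, 13 of the 27 genes longer than the median of 3509 exonic bases fell and 1 rose, against 8 of the 28 others that fell and 5 that rose. With MSN-PEG500, 13 of the 27 longer genes fell and 2 rose, against 7 and 1 of the 28 others. Of the genes above, Pole, Pola1, Wdhd1, Timeless, Topbp1 and Tk1 are among the longer ones, and Mcm6, Rpa2 and Orc1 among the shorter. The part of length in these changes was not tested. With MSN500, the log2 value ranged over -0.66 to -0.54 for Tk1 and -0.42 to -0.34 for Lig1 in the 15 alternatives run, a fit with the length trend removed among them.

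Genes outside the set were counted with the same fit and the same backgrounds as above. With MSN500, 21.2% of all genes tested were called lower and 21.6% higher. With MSN-PEG500, the shares were 16.9% and 17.5%. Of 39 further genes of the replication machinery, 18 fell and 3 rose with MSN500, and 15 fell and 4 rose with MSN-PEG500. Leading among them by the F-test over the 5 groups were Dna2, the nuclease and helicase of flap processing, with log2 values of -0.38 and -0.25 (adjusted p = 5.22e-09 and 7.40e-06), Gmnn, given above, and Recql4, a helicase of initiation, with -0.45 and -0.40 (adjusted p = 1.75e-07 and 1.50e-06). Of 35 further genes of nucleotide supply, 11 fell and 8 rose with MSN500, and 10 fell and 4 rose with MSN-PEG500. Leading were Samhd1, the phosphohydrolase that degrades deoxynucleotides, with -0.38 and -0.26, and the purine synthesis genes Paics (-0.25 and -0.18) and Adss (-0.28 and -0.20), all 3 called lower with both. Of 18 S-phase checkpoint genes, 12 fell and 1 rose with MSN500, and 7 fell and 2 rose with MSN-PEG500; Atrip, Atm and Fancd2 led, with -0.35, -0.42 and -0.44 in MSN500 and -0.44, -0.16 and -0.25 in MSN-PEG500, all called.

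Of 32 regulators of the G1 to S transition, 15 fell and 5 rose with MSN500, and 16 fell and 2 rose with MSN-PEG500. Their log2 values ranged from -0.8 to 0.91 with MSN500 and from -0.7 to 0.5 with MSN-PEG500. Leading were Cdkn1b, which encodes the CDK inhibitor p27 that restrains entry into S phase, E2f2 and Tfdp2, the partner of E2F proteins. Cdkn1b averaged 28.3 ± 1.46 normalized CPM in MSN500 and 30.3 ± 0.869 in MSN-PEG500, against 49.0 ± 1.45 in Control (SD, n = 3 each), with log2 fold changes of -0.79 and -0.70 (adjusted p = 9.50e-12 and 1.80e-10). E2f2 averaged 43.3 ± 0.983 normalized CPM in MSN500 and 47.0 ± 1.23 in MSN-PEG500, against 65.0 ± 1.70 in Control (SD, n = 3 each), with log2 fold changes of -0.59 and -0.47 (adjusted p = 2.80e-11 and 2.85e-09). Tfdp2 had -0.80 and -0.57 (adjusted p = 5.67e-10 and 3.03e-07). Of 18 genes of mitosis, 14 fell and 0 rose with MSN500, and 15 fell and 0 rose with MSN-PEG500; Bub1b, Kif20a and Nusap1 led, with -0.40, -0.32 and -0.41 in MSN500 and -0.38, -0.35 and -0.29 in MSN-PEG500.

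The authors' deposited table of their own comparisons, whose ratios run the other way round (Control over particle), called 26 of the 55 for MSN500 and 23 for MSN-PEG500 against Control, 2 for Stober50 and 1 for Stober500. These counts cover both directions. The share of all genes called there is not given here, so the counts cannot be read as particular to the set.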

How the data were processed

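RNA of 15 libraries, 3 in each of 5 groups, was sequenced with 50-cycle single reads, per the labels' protocols. Reads were aligned with Novoalign 2.08.03 to GRCm38 (mm10), and DESeq2 and limma 3.28.21 were used, per the submitters' processing notes. The deposited counts are alignments sharing 1 or more bases with a gene, per the file headers; whether strand was used is not stated in the file headers. The FPKM values were computed by the authors from these counts. The authors' deposited table also gives log2 ratios from DESeq2 and scores, which are -10 log10 of adjusted p; its exon scores come from a chi-square test that does not model replicates, per the file headers. The authors' rlog values, threshold lists and lists of problem genes were not used. Of the columns of the count table, 0 belong to other samples. Replicate pairs differed by more than sampling noise, so all 15 libraries were kept.

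From the counts, edgeR 4.0.16 in R 4.3.3 was run on all groups together, with TMM factors and filterByExpr, which left 12798 of 13342 genes; 1 gene without an annotation line was kept in the fit. Quasi-likelihood tests with Benjamini-Hochberg adjustment over all genes tested gave each comparison, an F-test compared the 5 groups, and adjusted p under 0.05 made a call. The code was tested on simulated data. The members and lists were chosen with earlier results of these data known. Genes named with a value for every library were the gene with the smallest p over the 5 groups in each role and the 12 with the largest change from Control; of other lists, the 3 with the smallest p. Alternatives used other scalings, no filter, DESeq2 1.42.0, limma 3.58.1, a replicate block, the 2 groups alone, a length correction and each library left out. Gene positions are those of the deposited table, counted from 1.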

Additional observations from a re-analysis of the deposited data

Results flagged for a closer look

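The authors' deposited table holds a score for exons whose change differs from that of the whole gene, which the comparisons above do not use. For 3 of the 55 genes it passed its threshold of 13.01 in 2 pairs of groups, and for 0 of the 55 in the 5 other pairs. In that table Topbp1 scored 103 between MSN-PEG500 and Control and 67.4 between MSN-PEG500 and MSN500, Chaf1a scored 70.4 and 52.3, and Ccne1 scored 14.9 and 13.3. The largest exon log2 ratio in the authors' deposited table was 2.75 for Topbp1, 1.74 for Chaf1a and 1.37 for Ccne1 with Control on top and MSN-PEG500 below, and -2.79, -1.49 and -1.22 with MSN-PEG500 on top and MSN500 below. Over all 13341 genes scored, the authors' deposited table has 161 (1.21%) past the threshold in the pair with Control and 184 (1.38%) in the pair with MSN500. These pairs share the MSN-PEG500 libraries, and the score does not model replicates. Whether a single library accounts for it was not tested.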

How the results depend on the processing

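Of the 86 calls on the 55 genes, 62 were kept under every alternative run, among them 19 of 27 for MSN500 against Control, 21 of 23 for MSN-PEG500 against Control and 21 of 30 for MSN500 against Stober500; 0 of 5775 gene values reversed a call. On library totals, an alternative chosen after seeing the data, genes called with MSN500 were 32 lower and 2 higher (3 higher with upper quartile factors), those in MSN500 against Stober500 were 33 lower and 5 higher, and Stober50 against Control had 4 called, all lower. The background moved as well. Of all genes called on library totals, 67.0%, 66.6% and 62.2% were lower in these comparisons, in that order, against 49.5%, 49.5% and 49.1% with TMM. With the length trend removed, Stober50 against Control had 1, lower, and MSN-PEG500 against MSN500 had 1, higher. Stober500 against Control had 1 called, lower, with DESeq2. Stober50 against Stober500 had 0 called and 0 higher with upper quartile factors, library totals, limma-voom and the length trend removed, and 2 called, 1 of them lower, with only the 2 groups fitted. MSN-PEG500 against MSN500 had 1 lower with upper quartile factors and with no filter. The causes were not tested.

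No pairing by replicate number was seen in the deviations from the group means. Same-numbered libraries had correlations of -0.164 to 0.059, and 0 of 21 were over 0.1. Libraries with different numbers had -0.113 to 0.179, and 3 of 42 were over 0.1. With 3 libraries a group, these values cannot show that the cultures were unpaired. With the number as a replicate block, the genes called were 27 for MSN500 and 23 for MSN-PEG500 against Control, 30 for MSN500 against Stober500, 2 for Stober50 and 1 (lower) for Stober500 against Control, 0 (0 higher) for Stober50 against Stober500 and 4 (1 lower) for MSN-PEG500 against MSN500.

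Leaving out 1 library at a time gave 22 to 27 called with MSN500 (4 to 7 higher, 18 to 21 lower), 21 to 25 with MSN-PEG500 (2 to 4 higher, 19 to 22 lower), 1 to 2 with Stober50 (1 to 2 lower) and 0 to 1 with Stober500 (0 to 1 lower) against Control. It gave 23 to 29 for MSN500 against Stober500 (7 to 9 higher, 16 to 20 lower), 1 to 6 for MSN-PEG500 against MSN500 (1 to 3 higher, 0 to 3 lower), 0 to 0 for Stober50 against Stober500 and 26 to 32 over the 5 groups. No detection limit was computed; with MSN500, Pcna was called at 0.10 on the log2 scale, while Gins1 and Pold3, at -0.11 and -0.11, were not.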
